A study of Mus musculus with 6 samples.

Results

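DNA replication and S phase genes encode the machinery that loads and starts replication origins, copies the DNA, supplies its nucleotides, packs the new strands into chromatin and guards the forks. A set of 47 such genes was examined in mouse liver. The rule lists the genes by name and uses no measured value, and each was matched to the spots outside the array's controls that carry its name. The set and the gene lists placed beside it were nonetheless chosen with earlier results of these data known. All 47 were found among the 37074 gene names on the array, on 98 probes. The livers came from nude mice, which have no thymus and lack mature T cells, and the labels give the strain only as Nude. Mice of the sEV group were given small extracellular vesicles. These are particles enclosed by membrane that cells shed, and here they were purified from the human colorectal cancer line SW620. A dose of 20 µg went into the tail vein each time, and the mice had 10 injections within 21 days. The Control group had 10 injections of sterile PBS, a buffer without particles, within the same 21 days. Each group had 5 mice and 3 livers of each were arrayed, those of the sEV group picked at random. The labels give neither age nor sex, and the samples are whole liver rather than sorted cells. The comparison is of vesicles with buffer, and vesicles of another source are not analysed here.

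Before S phase, the origin recognition complex with Cdc6 and Cdt1 loads the Mcm2 to Mcm7 ring onto DNA, a step called licensing. The kinase Cdc7 and the factors Mcm10, Cdc45 and GINS then turn the loaded ring into a moving helicase, which DNA polymerases follow. E2F transcription factors switch on many of these genes at the start of S phase. Most hepatocytes of an adult liver rest outside the cell cycle, and blood precursors and other non-parenchymal cells can add RNA of dividing cells to a whole liver sample.

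Each array measured 1 liver in 1 colour. Of 59305 spots outside the controls, 49.9% to 54.7% were well above background on each array, and the 75th percentile of their signal, to which every array was scaled, was 434 to 499.5 on control and 391 to 418 on sEV arrays. All values below are log2 signals relative to that percentile, and a log2 fold change is the sEV mean minus the control mean, given with its standard error for 3 livers per group. Levels of different genes come from different probes and are not compared. All 9 hepatocyte markers measured were well above background, and the signal of albumin (Alb) differed by 0.15 ± 0.15 (limma adjusted p = 0.512). The 6 arrays shared 1 slide and 1 scan. The controls and sEV liver 1 lay in slide row 1, and sEV livers 2 and 3 lay in row 2. The labels do not say whether the livers were handled in more than 1 session, and p-values measure the spread between these livers only. The 3 livers per group limit the precision, and the smallest p an exact test of 3 against 3 can give is 0.1.

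The promoter sequences of the members are shown because E2F regulators are themselves members. RefSeq promoters (250 bases before to 50 after the gene's start, GRCm38.p6) were held for 40 of the 47. The 4 E2F words TTTCCCGC, TTTCGCGC, TTTGCCGC and TTTGGCGC were searched on both strands. At least 1 occurred in 15 of the 40 member promoters (37.5%), against 626 of all 27025 promoters (2.32%). They are 21 matches in all, 13 of them within 100 bases of the start. Among the E2F regulators, the E2f2 promoter held a word, and those of E2f1 and E2f8 held none. In Mcm5 and Mcm6 a word on 1 strand overlaps a word on the other. The E2F words are rich in C and G, and base composition was not matched between the promoters. Stretches of 8 members follow, 5′ to 3′ on the strand that reads the word, with the word in capitals. They were picked after the values were seen, to set 6 members with large falls beside Mcm7 and Rfc3, whose falls were among the smallest.
Mcm6: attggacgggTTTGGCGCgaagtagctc
Mcm5: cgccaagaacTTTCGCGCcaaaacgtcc
Mcm3: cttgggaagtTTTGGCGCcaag
Cdt1: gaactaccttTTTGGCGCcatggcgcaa
Dtl: gtgacgtcagTTTGGCGCggagtttggc
Pole2: atgttcgcgaTTTGGCGCcaccgccgac
Mcm7: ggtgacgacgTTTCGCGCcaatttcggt
Rfc3: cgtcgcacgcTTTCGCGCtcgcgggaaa
Counted along the gene's strand from its start, the word's first base lies at position -47 in Mcm6 (chr1:128359735-128359762), -153 in Mcm5 (chr8:75109346-75109373), 39 in Mcm3 (chr1:20820263-20820284) and 33 in Cdt1 (chr8:122568037-122568064). It lies at -8 in Dtl (chr1:191575535-191575562), 11 in Pole2 (chr12:69228163-69228190), 17 in Mcm7 (chr5:138171850-138171877) and -10 in Rfc3 (chr5:151651201-151651228). The word reads on the gene's own strand in all of these but Pole2. A match is a description of the sequence and no measurement of binding.

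The Mcm6 promoter holds 3 matches, the most of any member. A 150-base stretch of it (chr1:128359706-128359855, on the gene's minus strand) is shown with the E2F words in capitals, where the first run of capitals is a pair of overlapping words. The stretches of Rrm2 (chr12:24708104-24708253, plus strand) and Uhrf1 (chr17:56303187-56303336, plus strand) are set beside it as members with large falls and no such word in the window searched.
Mcm6: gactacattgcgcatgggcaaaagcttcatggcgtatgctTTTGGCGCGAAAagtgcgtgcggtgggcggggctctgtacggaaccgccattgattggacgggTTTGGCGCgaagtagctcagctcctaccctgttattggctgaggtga
Rrm2: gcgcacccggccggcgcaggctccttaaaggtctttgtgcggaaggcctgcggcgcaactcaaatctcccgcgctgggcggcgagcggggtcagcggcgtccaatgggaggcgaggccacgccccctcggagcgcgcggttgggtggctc
Uhrf1: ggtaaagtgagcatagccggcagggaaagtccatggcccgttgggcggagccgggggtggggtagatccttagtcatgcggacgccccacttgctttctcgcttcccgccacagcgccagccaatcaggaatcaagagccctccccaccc
The word CCAAT, the core of the NF-Y site, was present in 24 of the 40 member promoters (60.0%) and in 37.9% of all promoters. The word TTTGAA, the cell cycle homology region, was present in 5 of the 40 (12.5%) and in 18.1% of all promoters. The 13 tested members with an E2F word had a median fitted log2 fold change of -1.37 (range -3.38 to -0.58), and the 25 with a promoter entry and no such word had a median of -1.07 (range -2.61 to -0.10). These ranges overlap over most of their length.

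Replication genes were lower in the livers of vesicle-treated mice, from origin licensing to chromatin assembly. Of the 47 members, 45 passed the filter on dim probes (well above background on 3 or more of the arrays). Of these, 40 were lower in sEV livers at a limma adjusted p under 0.05, 0 were higher (also 0 at an unadjusted p under 0.05) and 5 did not pass. Over all 19447 genes tested, 7.99% were lower and 8.96% higher by the same rule, 16.9% in either direction. The 45 fitted log2 fold changes were all negative, with a median of -1.15 against 0.03 over all genes tested. The fall was 2-fold or more in 26 members, against 3.09% of all genes. In 43 members every sEV liver lay below every control liver, against 18.1% of all genes. Chek1 and Cdc45 passed the filter through the control arrays alone. Of the 45, 39 were well above background on all 6 arrays, and 36 of these were lower in a fit restricted to such genes, against 8.37% of all genes in that fit. In bulk liver, fewer cells in S phase and less replication RNA per cell cannot be told apart. With the slide row as a block, 23 members stayed lower, against 2.47% of all genes, and within row 1 (1 sEV liver against 3 controls) 18 were lower, against 2.23%, 17 of them among the 40. Row 2 holds no control, so both fits take their fold changes from sEV liver 1 against the 3 controls. Their shared median of -1.17 is that of sEV liver 1, and the 2 fits are not separate results. Leaving out 1 array at a time left 32 to 37 members lower, against 3.69% to 6.63% of all genes. Of the 40 calls, 31 held without any 1 of the arrays.

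**Figure D1:**
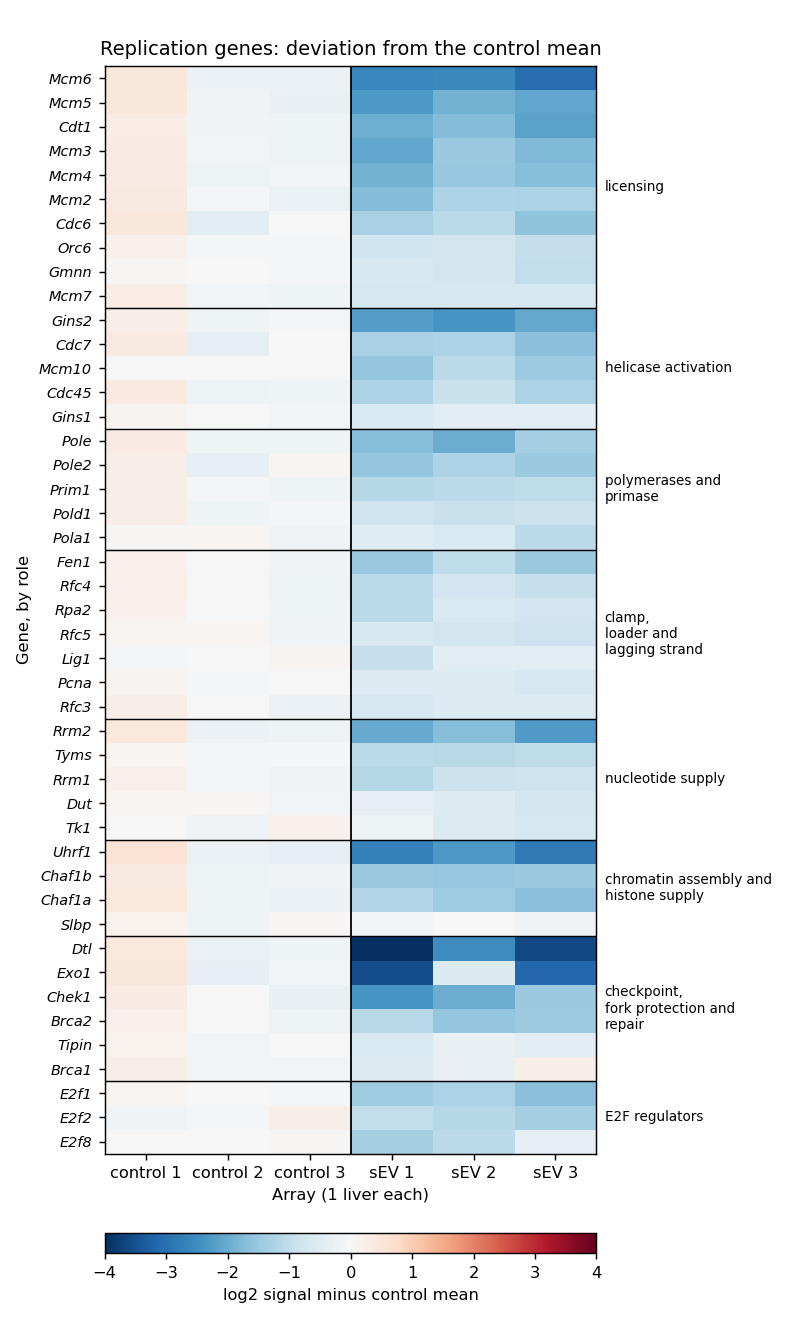
Deviation of each tested replication gene (rows, grouped by role) from the mean of the 3 control livers on the log2 scale, for every array (columns); blue is below and red above the control mean. The sEV columns are blue for nearly all genes, with the deepest colours at Dtl, Exo1 and Mcm6, and Slbp and Brca1 stay close to the controls.

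The licensing genes fell throughout: all 10 tested were lower, with a median log2 fold change of -1.55. Mcm6, a subunit of the helicase ring, read 3.34, 2.66 and 2.66 in control livers 1 to 3 and 0.28, 0.32 and -0.15 in sEV livers 1 to 3. The groups are far apart, with control 1 above the other controls. Its fall was 6.66-fold (-2.74 ± 0.23, limma adjusted p = 0.00177). A further Mcm6 probe, well above background on control arrays only, was lower by at least 1.55-fold, taking as the sEV level of each array the higher of the probe's own signal and the lowest signal of any probe well above background (the floor).

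The other ring subunits moved by unequal amounts. Mcm5 read 0.93, 0.34 and 0.18 in control livers 1 to 3 and -1.82, -1.42 and -1.59 in sEV livers 1 to 3, a fall of 4.28-fold (-2.10 ± 0.21, adjusted p = 0.00373 with limma). Mcm3 fell 3.42-fold (-1.78 ± 0.20), Mcm4 fell 3.25-fold (-1.70 ± 0.17) and Mcm2 fell 2.64-fold (-1.40 ± 0.21). Mcm7 read 2.76, 2.37 and 2.29 in control livers 1 to 3 and 1.78, 1.83 and 1.85 in sEV livers 1 to 3. Its sEV livers also lay below all controls, but the fall was the smallest of the ring at 1.58-fold (-0.66 ± 0.14, limma adjusted p = 0.0251), and the call ended without control 2 or without any 1 of the sEV livers (highest limma adjusted p 0.0682, log2 fold changes -0.75 to -0.51). The further Mcm7 probe was well above background on 1 array only.

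Cdt1, which brings the ring to the origin, read 2.15, 1.73 and 1.71 in control livers 1 to 3 and -0.10, 0.14 and -0.26 in sEV livers 1 to 3. All sEV livers lay far below the lowest control. The fall was 3.83-fold (-1.94 ± 0.16, limma adjusted p = 0.00183). Gmnn (geminin), the inhibitor of Cdt1, fell 1.72-fold (-0.78 ± 0.11, limma adjusted p = 0.00916). Cdc6, which loads the ring with Cdt1, fell by a log2 of 1.33 ± 0.24 (limma adjusted p = 0.0198), a call that ended without control 3 or without sEV 3 (highest adjusted p 0.0565). With normexp background correction its log2 fold change was -0.60. Its other probe was well above background on 2 control arrays and no sEV array, and its control mean lay close to the floor. Orc6, a subunit of the origin recognition complex, fell 1.78-fold (-0.83 ± 0.11). Orc1, another subunit, was not tested, since its probes were well above background on at most 1 array, a control; no difference is given for its 3 probes.

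Genes of helicase activation were lower in all 5 cases (median -1.38). Gins2, a subunit of the GINS complex that joins the ring to the polymerases, read -0.07, -0.54 and -0.38 in control livers 1 to 3 and -2.54, -2.68 and -2.38 in sEV livers 1 to 3. The livers of each group lie close together and the groups far apart, with a fall of 4.60-fold (-2.20 ± 0.15, limma adjusted p = 0.000775). Gins1, a subunit of the same complex, read 0.82, 0.76 and 0.61 in control livers 1 to 3 and 0.12, 0.32 and 0.29 in sEV livers 1 to 3 and fell 1.40-fold (-0.48 ± 0.10, limma adjusted p = 0.0251). That call held in the fit without control 3 and ended in the other leave-one-out fits (adjusted p up to 0.0791).

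Mcm10, which helps to start the helicase, read 2.86, 2.86 and 2.84 in control livers 1 to 3 and 1.26, 1.78 and 1.39 in sEV livers 1 to 3. Its controls are nearly identical and the sEV livers are more spread, all below them, with a fall of 2.60-fold (-1.38 ± 0.14, limma adjusted p = 0.00373). Cdc7, the kinase that fires origins, fell 2.65-fold (-1.41 ± 0.21; -0.55 with normexp), with 2 of 3 sEV arrays well above background. Cdc45, a helicase cofactor, was on no sEV array well above background, so that only a bound against the floor can be given, a fall of at least 1.84-fold (limma adjusted p = 0.0153). The bound holds for this background correction: with normexp the log2 fold change was -0.25 and the call ended (limma adjusted p = 0.0736), as it did without the filter (0.0600) and with the mean of its passing probes (0.0506). A further Cdc45 probe differed by -0.31.

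**Figure D2:**
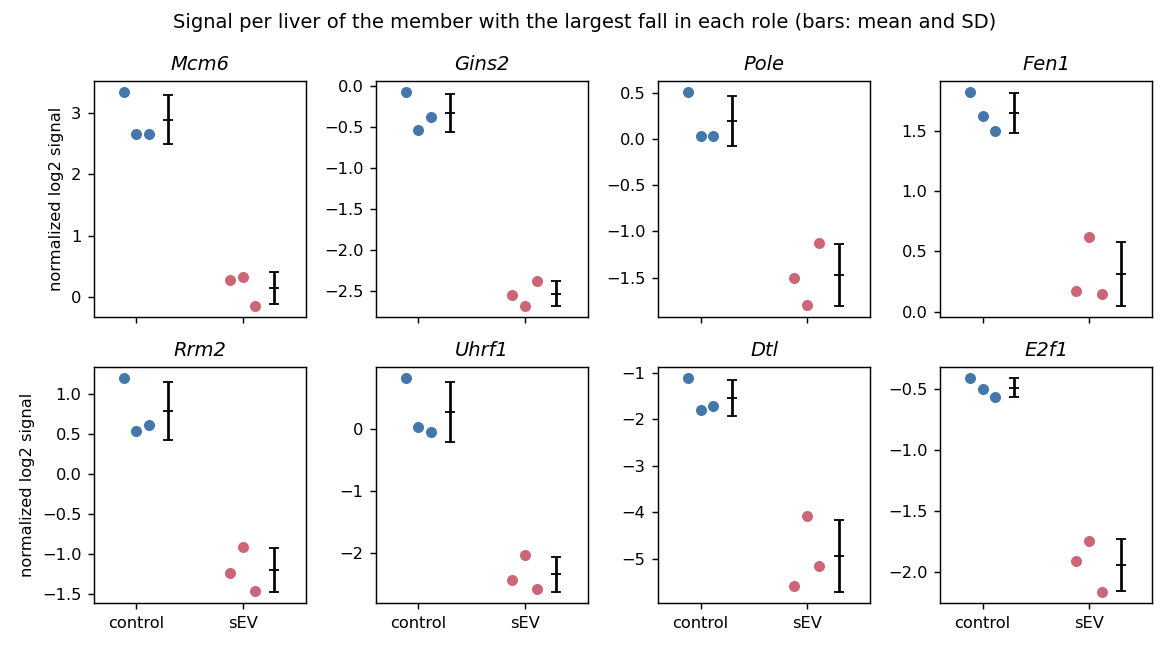
Normalized log2 signal per liver of the member with the largest fitted fall in each of the 8 roles, control livers in blue and sEV livers in red, with the mean and SD of the 3 livers beside each group; each panel has its own axis. In all 8 genes the sEV livers sit below the lowest control liver.

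All 5 polymerase and primase genes were lower (median -1.07). Pole, the catalytic subunit of the leading strand polymerase epsilon, read 0.51, 0.03 and 0.03 in control livers 1 to 3 and -1.50, -1.79 and -1.13 in sEV livers 1 to 3. The sEV livers lie below the controls and differ among themselves, with sEV 2 lowest, and the fall was 3.18-fold (-1.67 ± 0.21, limma adjusted p = 0.00664). Pole2, a further subunit of that polymerase, fell 2.68-fold (-1.42 ± 0.17; -0.50 with normexp) with 2 of 3 sEV arrays well above background. Prim1, the primase that lays down RNA primers, fell 2.10-fold (-1.07 ± 0.13). Pold1, the catalytic subunit of polymerase delta, fell 1.80-fold (-0.85 ± 0.13). Pola1, the catalytic subunit of polymerase alpha, read -1.22, -1.19 and -1.40 in control livers 1 to 3 and -1.75, -1.88 and -2.32 in sEV livers 1 to 3 and fell 1.64-fold (-0.71 ± 0.16, limma adjusted p = 0.0332; -0.41 with normexp). Its call held without sEV 1 but ended without any other array (adjusted p up to 0.102).

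The clamp, its loader and the lagging strand genes were lower in 7 of 7 cases, with smaller falls (median -0.74) and 1 member past 2-fold. That member is Fen1, the nuclease that trims Okazaki fragments, which read 1.83, 1.62 and 1.50 in control livers 1 to 3 and 0.17, 0.62 and 0.15 in sEV livers 1 to 3 and fell 2.52-fold (-1.34 ± 0.16, limma adjusted p = 0.00557). Pcna, the sliding clamp, read 3.62, 3.44 and 3.48 in control livers 1 to 3 and 2.96, 2.95 and 2.85 in sEV livers 1 to 3. The change is small beside that of Fen1, yet the groups do not overlap and the spread is narrow, so that a 1.51-fold fall passed the test (-0.59 ± 0.09, limma adjusted p = 0.0105).

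Among the clamp loader subunits, Rfc4 fell 1.89-fold (-0.92 ± 0.13), Rfc5 fell 1.67-fold (-0.74 ± 0.10) and Rfc3 fell 1.49-fold (-0.58 ± 0.14, limma adjusted p = 0.0359). The Rfc3 call held in the fit without control 3 and ended in the other leave-one-out fits (adjusted p up to 0.0944). The probes of Rfc5 disagree. The brightest probe (mm9 chr5:117829154-117829213) fell, whereas the probes at chr5:117836329-117836388 and chr5:117832178-117832237 differed by 1.28 and 0.00, and the mean over its probes was 0.18 (adjusted p = 0.573 with limma). Those probes carry accessions of other transcripts than the brightest one.

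Rpa2, a subunit of the protein that coats single-stranded DNA, fell 1.75-fold (-0.81 ± 0.15, limma adjusted p = 0.0198; -0.53 with normexp), a call that ended without control 1, control 2 or sEV 3 (adjusted p up to 0.0641). Lig1, the ligase that seals Okazaki fragments, read 1.20, 1.26 and 1.41 in control livers 1 to 3 and 0.37, 0.86 and 0.83 in sEV livers 1 to 3. Its sEV 1 is the lowest and the other sEV livers lie nearer to the controls. The fall was 1.52-fold (-0.60 ± 0.15, limma adjusted p = 0.0429), and the call ended without any 1 array other than sEV 1, with adjusted p up to 0.123. A further Lig1 probe, well above background on control arrays only, was lower by at least 1.80-fold against the floor.

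**Figure D3:**
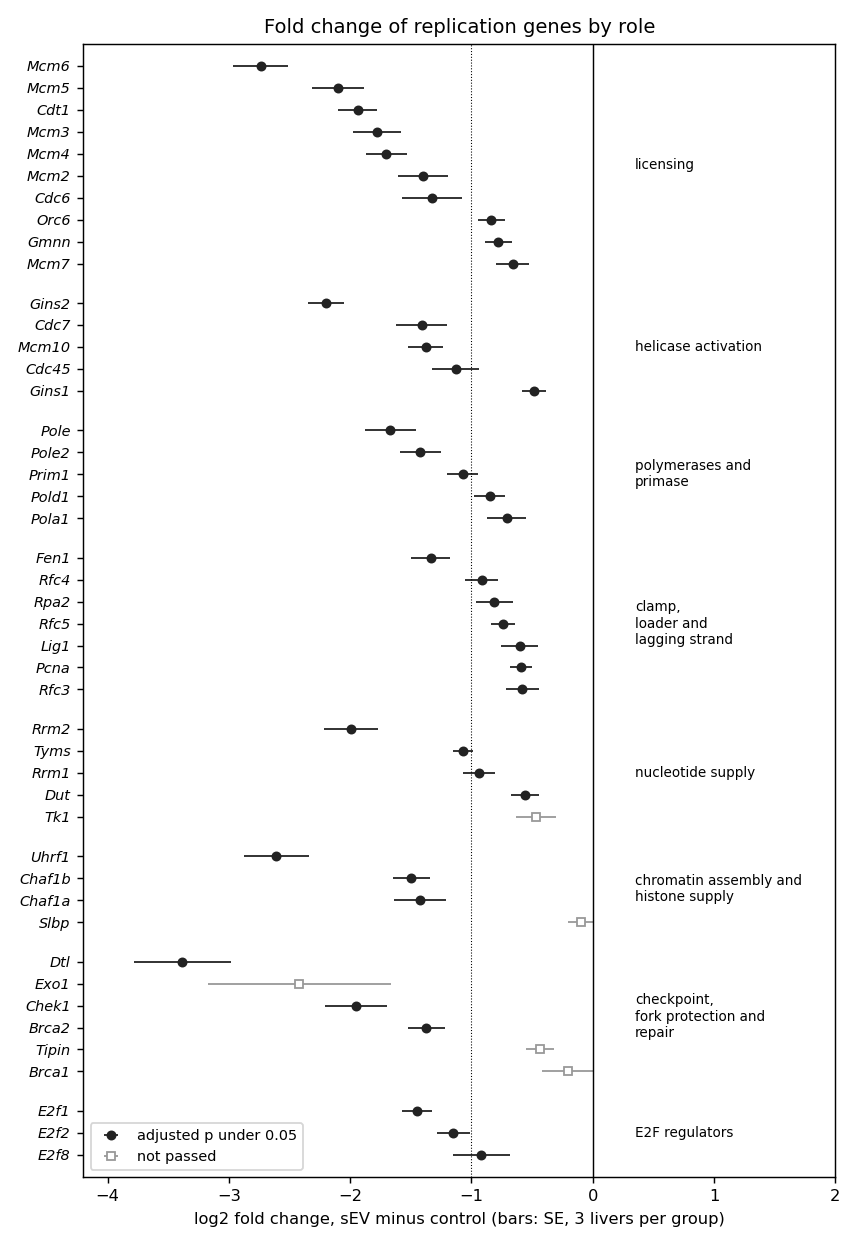
Log2 fold change of each tested member (points) with its standard error (bars, 3 livers per group), grouped by role; filled points passed the threshold of 0.05 and open squares did not, and the dotted line marks a fall of 2-fold. All points lie left of 0, and the 7 clamp, loader and lagging strand genes cluster between -1.34 and -0.58.

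Of 5 genes of nucleotide supply, 4 were lower (median -0.94). Rrm2, the S phase subunit of ribonucleotide reductase, read 1.21, 0.54 and 0.62 in control livers 1 to 3 and -1.24, -0.91 and -1.46 in sEV livers 1 to 3. The groups are well apart, with a fall of 3.98-fold (-1.99 ± 0.22, limma adjusted p = 0.00450). Rrm1, the large subunit of that enzyme, fell 1.91-fold (-0.94 ± 0.13). Tyms, thymidylate synthase, had one of the narrowest spreads at 2.21, 2.08 and 2.10 (control) and 1.06, 1.02 and 1.11 (sEV) and fell 2.10-fold (-1.07 ± 0.08, limma adjusted p = 0.00124). Dut, which clears dUTP, fell 1.47-fold (-0.56 ± 0.11, limma adjusted p = 0.0245), a call that ended without control 1, control 2, sEV 2 or sEV 3 (adjusted p up to 0.0808). Tk1, thymidine kinase, read 2.76, 2.64 and 2.97 in control livers 1 to 3 and 2.63, 2.25 and 2.10 in sEV livers 1 to 3. Its sEV 1 lies just below the lowest control, and the difference did not pass (-0.47 ± 0.16, limma adjusted p = 0.102), although it passed without sEV 1 (-0.62, limma adjusted p = 0.0386).

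Of the chromatin assembly and histone supply genes, 3 of 4 were lower. Uhrf1, which guides maintenance DNA methylation at the fork, read 0.82, 0.03 and -0.05 in control livers 1 to 3 and -2.43, -2.02 and -2.57 in sEV livers 1 to 3. Control 1 stands above the other controls, and all sEV livers lie far below, with a fall of 6.09-fold (-2.61 ± 0.26, limma adjusted p = 0.00366). Chaf1a and Chaf1b, subunits of the factor that places histones on new DNA, fell 2.68-fold (-1.42 ± 0.21; -0.94 with normexp) and 2.82-fold (-1.49 ± 0.16). Slbp, which binds the stem loop of histone mRNA, read -0.82, -1.14 and -0.92 in control livers 1 to 3 and -1.08, -0.98 and -1.11 in sEV livers 1 to 3. Those groups overlap, and the difference was -0.10 ± 0.11 (limma adjusted p = 0.565).

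The genes of the checkpoint, fork protection and repair were lower in 3 of 6 cases, and 3 of the 6 were well above background on all 6 arrays. Dtl, which directs Cdt1 to destruction in S phase, read -1.11, -1.81 and -1.72 in control livers 1 to 3 and -5.57, -4.07 and -5.15 in sEV livers 1 to 3. Its signals in sEV 1 and sEV 3 were not well above background, which leaves sEV 2 as the only sEV liver with a measured level. The fitted fall (-3.38 ± 0.40, limma adjusted p = 0.00541) rests in part on those signals. Against the floor the fall was at least 6.17-fold, and with normexp the log2 fold change was -1.30 (limma adjusted p = 0.00167). The 4 further Dtl probes were on no array well above background. Chek1, the checkpoint kinase, was on no sEV array well above background and fell at least 1.70-fold against the floor (limma adjusted p = 0.00739). That bound, too, holds for this background correction, and with normexp the log2 fold change was -0.37 (limma adjusted p = 0.0211).

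Brca2, which protects and repairs damaged forks, read -0.55, -0.74 and -0.94 in control livers 1 to 3 and -1.86, -2.29 and -2.20 in sEV livers 1 to 3 and fell 2.59-fold (-1.37 ± 0.15, limma adjusted p = 0.00450). Exo1, a nuclease of mismatch repair and end resection, read -1.44, -2.21 and -1.98 in control livers 1 to 3 and -5.41, -2.46 and -5.02 in sEV livers 1 to 3. The sEV livers disagree, since sEV 2 lies close to the controls and is the only one well above background, and the difference of -2.42 ± 0.76 did not pass (limma adjusted p = 0.0773). Without sEV 2 it passed (limma adjusted p = 0.00392), but no sEV array is then well above background, and only a bound of at least 5.09-fold against the floor remains. It also passed with normexp (-0.86, limma adjusted p = 0.0440). Tipin, part of the fork protection complex, differed by -0.43 ± 0.12 with groups that do not overlap (limma adjusted p = 0.0520), just outside the threshold of 0.05. Brca1, a repair protein, read -1.07, -1.42 and -1.41 in control livers 1 to 3 and -1.85, -1.60 and -1.07 in sEV livers 1 to 3, with sEV 3 at the level of the highest control, and differed by -0.21 ± 0.21 (limma adjusted p = 0.541). Clspn, the adaptor between Atr and Chek1, was not tested, since neither of its probes was well above background on any array.

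The 3 E2F regulators among the members were all lower (median -1.15). E2f1, an activator, read -0.41, -0.50 and -0.57 in control livers 1 to 3 and -1.91, -1.75 and -2.17 in sEV livers 1 to 3. The groups do not overlap and the fall was 2.73-fold (-1.45 ± 0.13, limma adjusted p = 0.00201). E2f2, another activator, fell 2.22-fold (-1.15 ± 0.14, limma adjusted p = 0.00573). E2f8, an atypical E2F that represses its targets, read -0.03, -0.03 and 0.02 in control livers 1 to 3 and -1.33, -1.06 and -0.40 in sEV livers 1 to 3. Its controls are tight and its sEV livers are spread, with sEV 3 nearest to the controls. The fall of 1.89-fold (-0.92 ± 0.23, limma adjusted p = 0.0430) passed, and the call ended without any 1 array other than sEV 3 (adjusted p up to 0.117).

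Partners within a complex or pathway step were set against each other by the change of 1 gene minus that of the other in the same livers. The 8 pairs were picked after the values were seen, and each was tested with a two-sided exact permutation test over livers. Mcm6 fell further than Mcm7 by 2.08 log2 units, Gins2 further than Gins1 by 1.72, Cdt1 further than Gmnn by 1.16 and Rrm2 further than Rrm1 by 1.05. The differences were -0.96 for Pole minus Pola1, -0.70 for Mcm5 minus Mcm2 and -0.34 for Rfc4 minus Rfc3. In these 7 pairs the groups did not overlap, each with an exact permutation p = 0.1 (0.114 after adjustment over the 8 pairs). The smallest p this test can give with 3 against 3 is 0.1, so no pair could pass the threshold whatever its values. The test thus cannot decide whether partners fell by different amounts. The differences only describe these livers, in pairs picked with the values known. Chaf1b and Chaf1a differed by -0.07 in their change, with overlapping groups (exact permutation p = 0.8, the same after adjustment).

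The fall was seen in each sEV liver. The median deviation of the 45 tested members from the control mean was -1.17 in sEV 1, -1.05 in sEV 2 and -1.27 in sEV 3. In 43 of the 45 members every sEV liver lay below every control liver, against 18.1% of all genes. The same median was 0.23, -0.10 and -0.13 in controls 1 to 3, which set that control mean themselves. Control 1 was the highest control in 39 of the 45 members, and the share of all genes where it was highest was not counted. Without control 1 the median of the members was -1.10 and 33 were lower, against 3.69% of all genes. Set against the control mean, all 45 members were negative in sEV 1 (slide row 1) and in the mean of sEV 2 and sEV 3 (row 2), with medians of -1.17 and -1.23. The 2 values lay within 0.5 log2 units of each other in 40 members, and the largest gap was 1.67 in Exo1. Row 1 holds 1 sEV liver, and row 2 holds no control. With the row as a block the fold change thus comes from sEV 1 against the controls. The 23 members lower with the slide row as a block were Brca2, Cdt1, Chaf1b, Chek1, Dtl, E2f1, Fen1, Gins2, Lig1, Mcm10, Mcm2, Mcm3, Mcm4, Mcm5, Mcm6, Pole2, Prim1, Rfc4, Rpa2, Rrm1, Rrm2, Tyms and Uhrf1. The other 17 calls ended with that block (Cdc45, Cdc6, Cdc7, Chaf1a, Dut, E2f2, E2f8, Gins1, Gmnn, Mcm7, Orc6, Pcna, Pola1, Pold1, Pole, Rfc3 and Rfc5; limma adjusted p 0.0582 to 0.246).

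**Figure D4:**
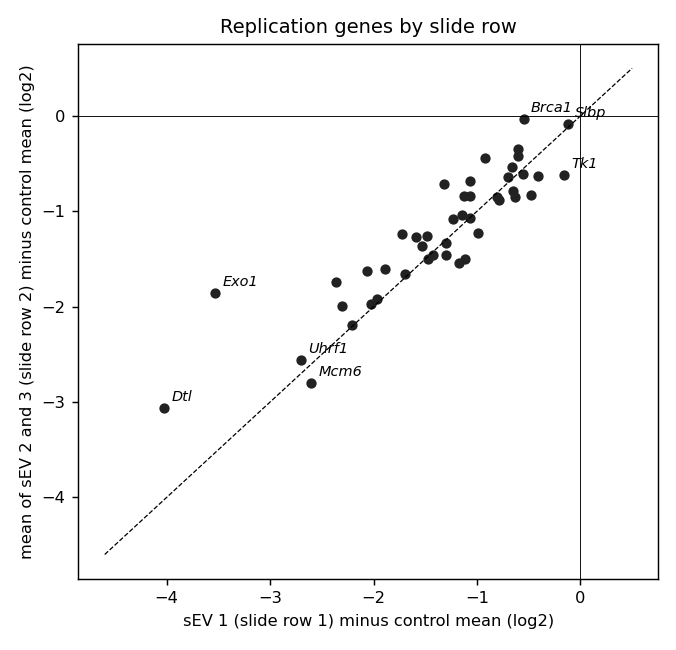
Log2 difference from the control mean of each tested member in sEV 1, which shared slide row 1 with the controls (horizontal axis), and in the mean of sEV 2 and 3 of slide row 2 (vertical axis); the dashed line marks equal values. Nearly all points lie close to the line and below 0 on both axes, and Exo1 has the largest gap.

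Of the 47 members, 32 were read by more than 1 probe. Of the 98 member probes, 74 passed the filter, 71 with a negative log2 fold change and 3 with a positive one. Of the 22 members with several passing probes, Brca1 and Rfc5 had probes of opposite sign. The accessions of all 45 probes that stand for the tested members matched the RefSeq gene of the same symbol.

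Other genes of replication and S phase, 62 names listed by function, were tested in the same fit. Of 60 tested, 29 were lower, 2 were higher and 29 missed the threshold, against 7.99% lower and 8.96% higher over all genes. The median log2 fold change was -0.38, or -0.37 with the 7 genes that were dim on all sEV arrays at their bound. The difference from the 45 members was not tested. Cdca5 (sororin), which holds sister chromatids together, fell by a log2 of 2.59 ± 0.19 (limma adjusted p = 0.00109), Asf1b, a histone chaperone, by 2.13 ± 0.18, and Atad2, a chromatin ATPase, by 1.45 ± 0.13. Esco2, which acetylates cohesin, and Bard1, the partner of Brca1, were on no sEV array well above background and fell at least 2.60-fold and 4.32-fold. The 2 that rose were Ung, the glycosylase that removes uracil from DNA (0.996 ± 0.21, limma adjusted p = 0.0267), and Pole4, a small subunit of polymerase epsilon (0.60 ± 0.11, limma adjusted p = 0.0205). Pole4 read 2.47, 2.73 and 2.79 in control livers 1 to 3 and 3.34, 3.17 and 3.28 in sEV livers 1 to 3, above every control in each sEV liver, while Pole and Pole2 of the same complex fell. The summed signal of the list, each gene relative to the array's 75th percentile on the linear scale and Ung included, was 269 to 349 in control and 394 to 444 in sEV livers. The probe of Ung gave the highest signal of the list and weighs most in that sum, which does not compare its level with that of other genes. Unlike the probes of the members, it was not checked against RefSeq. It read 6.69, 7.13 and 7.52 in control livers 1 to 3 and 8.06, 8.02 and 8.25 in sEV livers 1 to 3. A sum without Ung was not taken, so the higher sum does not describe the other genes. Of the 60 tested, 49 had a negative log2 fold change.

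Of 24 tested E2F, RB and cyclin genes, which control the step from G1 to S, 4 were lower, 3 were higher and 17 did not pass (median -0.02), against 7.99% lower and 8.96% higher over all genes. The 4 that fell were Skp2, which targets the inhibitor p27 (-1.06 ± 0.14), Cdkn2c, an inhibitor of Cdk4 and Cdk6 (-1.03 ± 0.18), the pocket protein gene Rbl1 (-0.86 ± 0.14) and Ccne1, the cyclin E1 gene (-0.78 ± 0.17). The 3 that rose were Cdkn1a, which encodes the Cdk inhibitor p21, the pocket protein gene Rbl2 (0.57 ± 0.11) and the activator E2f3 (0.52 ± 0.10). Cdkn1a read 1.80, 0.99 and 1.35 in control livers 1 to 3 and 2.79, 2.29 and 2.37 in sEV livers 1 to 3. All its sEV livers lie above the controls (1.11 ± 0.23, limma adjusted p = 0.0269). E2f3 thus moved the opposite way to E2f1 and E2f2, and the difference between them was not tested.

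Mitotic genes, most of which act after S phase, were lower in 29 of 30 cases, against 7.99% of all genes. Their median fitted log2 fold change was -3.54. Of the 30, 8 passed the filter through the control arrays alone, and with them at their bound the median was -3.43. Of the 16 well above background on all 6 arrays, 15 were lower, with a median of -3.38, beside -1.07 for the 39 replication members measured on all 6. The exception was Kif23, named after its values were seen (0.48, not passed). Mki67, the proliferation marker, read 2.18, 1.95 and 1.96 in control livers 1 to 3 and -1.70, -0.86 and -1.31 in sEV livers 1 to 3 (-3.32 ± 0.21, limma adjusted p = 0.000683). Top2a, the topoisomerase that untangles chromosomes, differed by -2.86 ± 0.15 (limma adjusted p = 0.000335). The summed signal of the 30 mitotic genes, each relative to the array's 75th percentile on the linear scale, was 63.6 to 80.2 in controls and 6.56 to 8.83 in sEV livers, and that of the 47 replication members was 102 to 123 and 51.0 to 55.7. The difference between the lists is a description and was not tested.

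**Figure D5:**
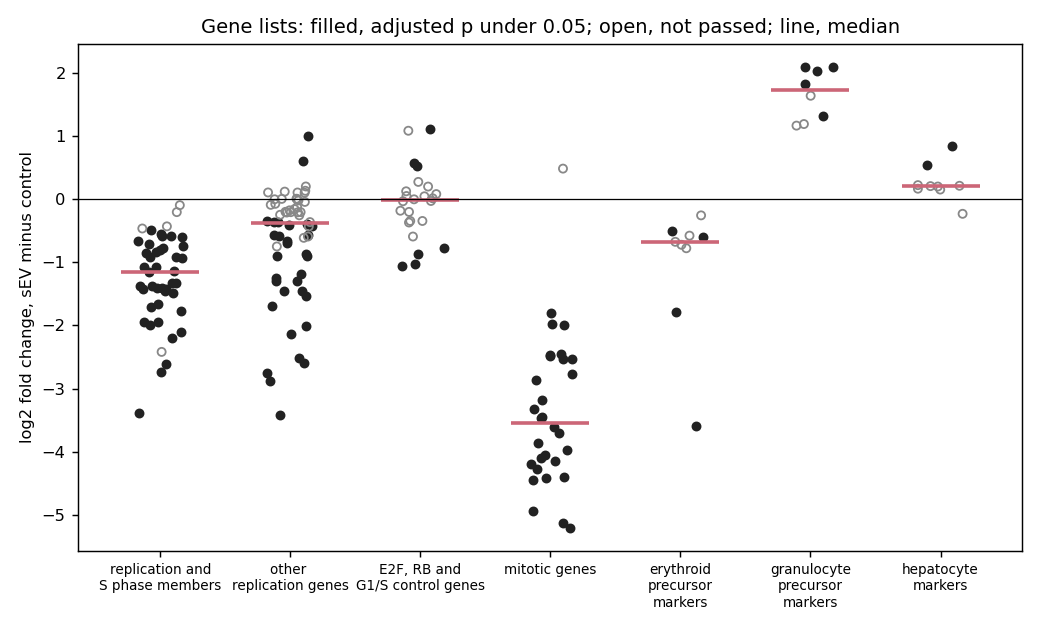
Log2 fold change of each tested gene (points) in 7 lists of genes, filled where the limma adjusted p was under 0.05 and open where it was not, with the median as a red line. The median of the replication members lies between that of the mitotic genes, the lowest of the 7, and that of the G1/S control genes, close to 0, while the granulocyte precursor markers lie above 0.

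Markers of dividing blood cells that a liver can hold moved in both directions. The counts below stand against 7.99% lower and 8.96% higher over all genes. Of 9 erythroid precursor markers tested (12 on the array), 4 were lower and 0 higher (0 at an unadjusted p under 0.05), led by Ahsp, the chaperone of alpha globin (-3.59 ± 0.34, limma adjusted p = 0.00287), and Slc4a1, the red cell anion exchanger (-1.79 ± 0.32, limma adjusted p = 0.0176). Ahsp read -0.69, -0.20 and -0.17 in control livers 1 to 3 and -4.38, -4.26 and -3.18 in sEV livers 1 to 3, of which only sEV 3 was well above background. The summed signal of the erythroid markers, globins included, was 590.0 to 646 in control and 204 to 661 in sEV livers, so the groups overlap. Of 8 granulocyte precursor markers, 5 were higher and 0 lower (0 at an unadjusted p under 0.05), among them Ctsg (2.09 ± 0.25) and Elane (1.32 ± 0.17), both proteases of the granules, and their sum was 7.45 to 14.9 in control and 28.2 to 52.0 in sEV livers. These markers moved with the replication genes or against them, and their part in the result was not tested.

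Markers of the resident cells of the liver moved in both directions as well, and their counts stand against the same 7.99% lower and 8.96% higher. Of 9 hepatocyte markers tested, 2 were higher, Cps1 of the urea cycle (0.85 ± 0.09) and Rbp4, the retinol carrier (0.53 ± 0.12), and their sum was 3772 to 4181 in control and 4109 to 4879.7 in sEV livers. Of 8 Kupffer cell and macrophage markers, 5 were higher, C1qa (0.74 ± 0.13) and Vsig4 (0.59 ± 0.11) among them, and the sum was 60.0 to 81.7 in control and 90.4 to 102 in sEV livers. Of 7 stellate cell and fibroblast markers, 3 were lower, among them Col3a1, a collagen (-1.89 ± 0.28), and Lrat, which stores retinol (-1.09 ± 0.17), with a sum of 73.5 to 106 in control and 53.7 to 75.2 in sEV livers. Of 6 B and plasma cell markers tested, 3 were lower and 1 higher. Cd79b differed by -1.02 ± 0.20, Ms4a1 fell at least 2.04-fold and Cd79a was on no array well above background, and the sum was 1.36 to 1.58 in control and 1.13 to 1.31 in sEV livers. None of the 7 endothelial markers passed the test with limma, 0 also at an unadjusted p under 0.05 (Clec4g 0.01 ± 0.26, sum 34.1 to 50.1 in control and 33.9 to 42.7 in sEV livers), and none of the 5 cholangiocyte markers tested did, 0 also unadjusted (Spp1 -0.31 ± 0.23, sum 5.22 to 8.98 in control and 5.06 to 5.50 in sEV livers), with Cftr on no array well above background. The part of these cell types in the replication result was not tested.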

How the data were processed

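Liver RNA of 3 control and 3 sEV mice was measured on Agilent 1-colour arrays (Cy3, per the labels' protocols), grouped by the treatment label. The submitters' processing notes name Agilent Feature Extraction 10.7.1.1 as the source of the scanner files. The deposited processed signal is an intensity from which, per the file headers, the background and spatial trends of the array had been removed. The authors' value table holds log2 values, its columns share a median of 4.50 and track the scanner values, and the steps behind it have no description in the labels.

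Main values were log2 processed signals minus each array's 75th percentile over spots without control spots and outlier flags (91 to 171 spots per array). A scaling over probe means was used first, and is kept as an alternative added after the data were seen. Spots of 1 probe were averaged. Genes needed a probe well above background on at least 3 of 6 arrays, and 1 probe, that of the highest mean, represented each gene, named by the array's design. The genes were fitted together in R 4.3.3 with limma 3.58.1 (functions lmFit and eBayes, without covariates). P-values were adjusted after Benjamini and Hochberg over the 19447 genes, and the threshold was 0.05. Lists were described by counts and medians only.

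The members and lists were chosen with earlier results of these data known. All members are described, as are up to 5 genes per direction of the other replication and the G1/S lists by moderated t, up to 2 per marker list (otherwise the gene with the highest mean), Mki67, Top2a and Alb. Promoters were to be shown for the member with the largest fall in each role. Those overlapping an annotated gene were left out, namely Cdc7, Pole2, Fen1, Dtl and E2f1. Cdc7 and E2f1 overlapped only their own gene. Cdc7, Fen1 and E2f1 held no E2F word in the window searched. The E2F stretches were added after the data were seen, and they include Dtl and Pole2.

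The fit was also run on simulated data with 3 arrays per group and a spread taken from the fitted data. There 14.2% of 1.5-fold, 60% of 2-fold and 95% of 4-fold changes were called, and 0.0369% of unchanged genes. The highest correlation between arrays across genes was 0.995. Alternatives changed background correction (normexp, offset 50), scaling, the filter, the probe rule, the eBayes trend, array weights and the value table, added slide row or replicate blocks, and left out each array. Plots used matplotlib 3.10.9 with Python 3.11.15.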

Additional observations from a re-analysis of the deposited data

How the results depend on the processing

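The count of 0 members higher held under all 19 alternatives run. With the slide row as a block 23 members were lower, and within slide row 1 alone 18 were, where 1 sEV liver is assumed to vary like the controls. The median log2 fold change of the members was -0.85 with normexp background correction. Leaving out 1 array gave 32 to 37 members lower, 0 higher, and medians from -1.25 to -1.10. Over all genes, 3.69% to 6.63% were lower in those fits. Under normexp, the other scalings, the trend, array weights and the value table, 41 to 42 members were lower. Over all genes, 7.95% to 9.5% were lower in those fits. With the mean of all probes 37 were, against 7.03% of all genes. Without a filter on dim probes 28 of 47 were (1.29% of 37074 genes), where the median over all genes was 0.20. Arrays that share a number in the labels deviated from their group means with correlations of 0.02, 0.16 and 0.02. The labels state no pairing, and these low correlations cannot exclude one with 3 arrays per group. With a replicate block on these numbers 35 were lower, against 5.58% of all genes, and the median was -1.15. Rfc5 turned to 0.18 with the mean of its probes. Tipin, just outside the threshold, passed under 8 alternatives (lowest adjusted p 0.0245 with limma). The 3 arrays per group and, for Dtl, Exo1, Chek1, Cdc45, Cdc7 and Pole2, signals not well above background on some sEV arrays limit the precision.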
